A study of Mus musculus with 15 samples.

Results

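The calcium/calmodulin-dependent protein kinase (CaM kinase) genes described here are 10 symbols of a cerebellar RNA-seq count table that holds 24420 symbols in all: Camk2a, Camk2b, Camk2d, Camk2g, Camk4, Camk1, Camk1d, Camkk1, Camkk2 and Camkv. They were taken by name, and all 10 passed the filter on low counts. The table covers 3 groups of 5 mouse cerebellum libraries. Wild type mice (WT) and mice with the Atxn1[82Q] allele (82Q) are labelled strain FVB/nJ and 9 weeks old. The third group carries Atxn1[82Q] together with CalphaLoxM120A (82Q_M120A), an allele of Prkaca, whose product is the catalytic subunit of protein kinase A. Its mice are labelled 8 weeks old and of mixed strain (Mix:c57Bl/6J:FVB/nJ). Both 82Q groups therefore share the expanded Atxn1 allele, and the kinase allele, the mixed strain and the younger age cannot be told apart in any comparison with 82Q_M120A. The series text calls Atxn1[82Q] a knockin. The mouse line usually known by that name carries a transgene under a Purkinje cell promoter (Pcp2), and the sources used here do not settle which cells express the allele or the altered kinase. Nothing in the labels says whether the libraries of a group came from separate animals, so p-values measure the spread between these libraries.

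CaM kinases turn a rise in cellular calcium into protein phosphorylation: calcium binds calmodulin, and calcium-loaded calmodulin releases the kinase from its own inhibitory segment. CaMKII is a large holoenzyme assembled from alpha, beta, gamma and delta subunits (Camk2a, Camk2b, Camk2g, Camk2d), abundant at synapses and needed for plasticity of the parallel fibre synapse onto Purkinje cells, whose axons leave the cerebellar cortex and which are the main site of disease in spinocerebellar ataxia type 1, which expanded Atxn1 causes. CaMKI and CaMKIV form a cascade below the CaM kinase kinases Camkk1 and Camkk2; CaMKIV, a nuclear kinase that acts on the transcription factor CREB, is abundant in cerebellar granule cells. Camkv encodes a related protein without kinase activity.

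Total counts ran from 38322749 in WT-5 to 99422994 in 82Q_M120A-1 (the numbers follow the order of the columns). Levels are given as CPM, counts scaled to a common library total with TMM factors, as mean ± SD with n = 5 per group. A gene was called where an edgeR quasi-likelihood test over 16808 genes gave a Benjamini-Hochberg adjusted p under 0.05; every adjusted p below comes from that test unless another is named. Log2 fold changes carry an approximate SE. No comparison called Atxn1, which averaged 52.9 ± 6.2, 56.5 ± 1.75 and 53.9 ± 2.14 CPM in WT, 82Q and 82Q_M120A; the count does not single out the expanded allele. Prkaca averaged 168 ± 3.6, 164 ± 5.76 and 145 ± 5.54 CPM and was lower in 82Q_M120A than in 82Q (adjusted p = 0.000633). Choroid plexus genes (6, among them Ttr), which come with tissue beside the cerebellum, summed to 27.8 to 2590 CPM in WT, 31 to 2780 in 82Q and 14.6 to 2050 in 82Q_M120A; 4 WT libraries, 2 of 82Q and 1 of 82Q_M120A lay above 1000 CPM. Microglial markers summed to 69.9 to 78.6 CPM in WT, 118 to 126 in 82Q and 111 to 135 in 82Q_M120A, and oligodendrocyte markers to 4530 to 5500, 5610 to 6830 and 6280 to 6890. The part of these other cells in the results below was not tested. Forebrain neuron markers stayed low: Emx1 lay between 0.0104 and 0.21 CPM in all libraries, and the 5 markers together summed to 4.92 to 5.92 CPM in WT, 5.66 to 7.65 in 82Q and 6.12 to 9.33 in 82Q_M120A.

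In 82Q against WT, 4 of the 10 CaM kinase genes were lower and none was higher: Camk2a, Camk2b, Camk1d and Camkk2. Of all tested genes 18.7% were called in this comparison, 10.1% as lower and 8.63% as higher. In 82Q_M120A against WT 4 were again lower and none higher, Camk2a, Camk2b, Camk1d and Camkv, where 36.4% of all tested genes were called, 17.8% as lower and 18.6% as higher. These comparisons share the 5 WT libraries. In 82Q_M120A against 82Q, where 18.9% of all tested genes were called (10.3% higher, 8.63% lower), Camk1 and Camkk2 were higher and Camkv was lower. The median log2 fold change of the 10 genes was -0.12, -0.10 and 0.04 in the 3 comparisons, against 0.01, 0.01 and 0.00 over all tested genes.

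The libraries of 82Q and WT did not overlap for 4 of the 10 genes, Camk2a, Camk2b, Camk1d and Camk1, all with 82Q below; over all tested genes 16.6% did not overlap, 9.79% with 82Q below and 6.81% with 82Q above. 82Q_M120A lay wholly below WT for Camk2a, Camk2b, Camk1d and Camkv (25.3% of all genes did not overlap, 12.9% below and 12.4% above). Against 82Q it lay wholly above for Camkk2 alone (12.1% of all genes did not overlap, 6.63% above and 5.5% below). In a test against a 1.2-fold change the calls that remained were Camk2a in 82Q against WT and Camk2a and Camkv in 82Q_M120A against WT, with none between the 82Q groups. With the choroid plexus sum of each library as a covariate, an alternative chosen after seeing the data, the calls of the 10 genes all stayed and 2 were added, which are given below.

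**Figure D1:**
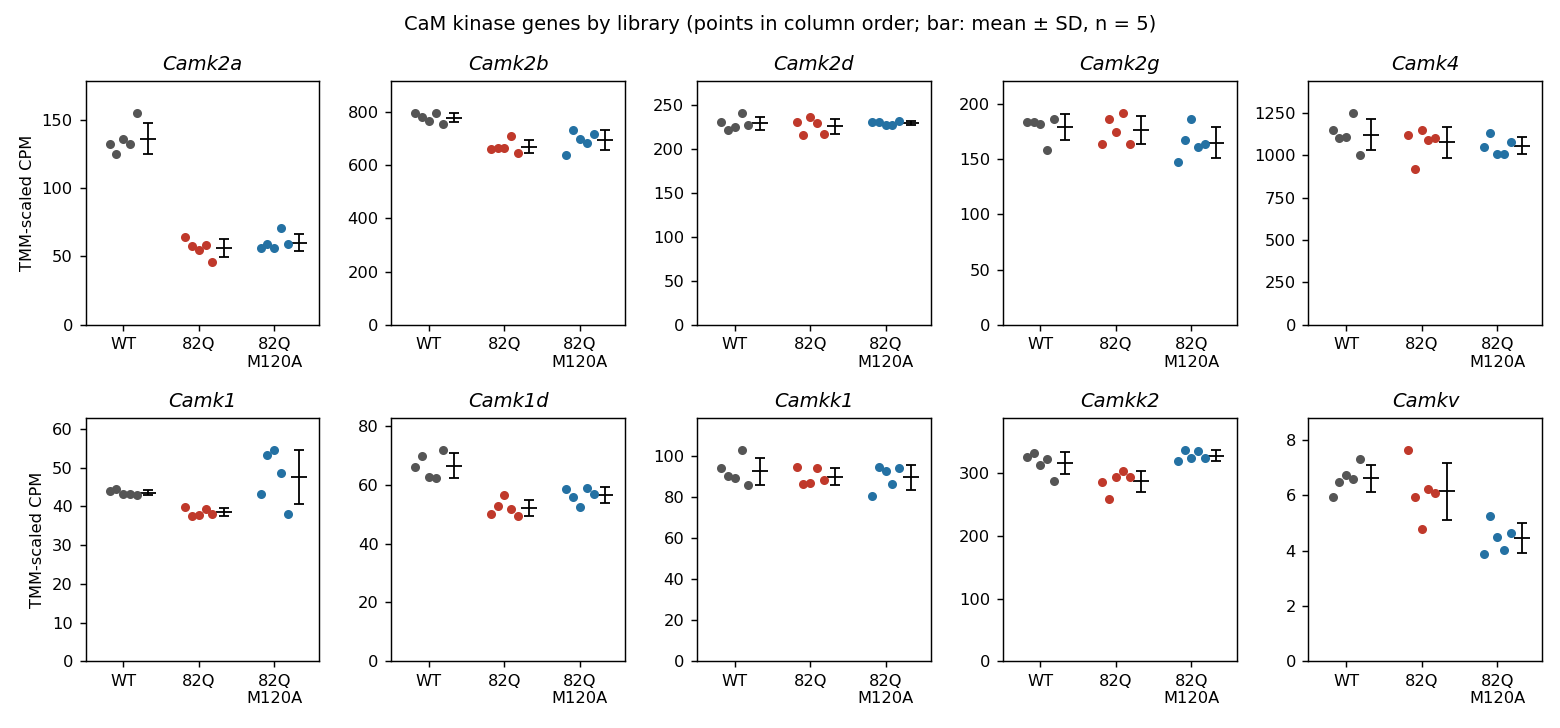
TMM-scaled CPM of the 10 CaM kinase genes (vertical axes from 0) in each library of the 3 groups, with the mean ± SD (n = 5) beside the points. Camk2a lies between 125 and 155 CPM in WT and between 45.6 and 70.5 in both 82Q groups, while Camk2d and Camkk1 overlap in every pair of groups.

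Camk2a (chr18:60925618-60988152, plus strand; all positions are GENCODE M21 genes on GRCm38, the mm10 assembly) encodes the alpha subunit of CaMKII, known in the cerebellum from Purkinje cells. WT-1 to WT-5 gave 132, 125, 136, 132 and 155 CPM. In 82Q-1 to 82Q-5 the level was 64, 57.4, 54.6, 58 and 45.6. In 82Q_M120A-1 to 82Q_M120A-5 it was 56.3, 58.7, 56.1, 70.5 and 58.7. Every WT library stood above every library of both 82Q groups, and the latter overlapped each other. The log2 fold change was -1.28 ± 0.09 in 82Q against WT (2.43-fold lower, adjusted p = 1.72e-08) and -1.18 ± 0.08 in 82Q_M120A against WT (2.26-fold, adjusted p = 2.96e-08). Counted from the lowest log2 fold change, it was number 100 of the 16808 tested genes in 82Q against WT. Between the 82Q groups the difference was 0.10 with a 95% interval of -0.08 to 0.28 and was not called (adjusted p = 0.443), so a rise of more than 0.28 log2 units in 82Q_M120A lies outside that interval.

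The Camk2a fall was of the size of the falls in Purkinje cell marker genes. The 10 markers, among them Pcp2 and the calcium buffer gene Calb1, had log2 fold changes from -2.29 (Gng13) to -0.60 (Skor2) in 82Q against WT, with a median of -1.25, and all 10 were called lower. In 82Q_M120A against WT the median was -1.11, with all 10 lower (17.8% of all tested genes were called lower, and 10.1% in 82Q against WT). Their summed level was 9490 to 10800 CPM in WT, 3330 to 4160 in 82Q and 3370 to 4720 in 82Q_M120A. The largest part of the sum was Itpr1, at 5020 ± 232, 1990 ± 175 and 1840 ± 248 CPM, so the sum mostly follows that gene. Camk2a counts equalled 1.33 ± 0.0606% of this sum in WT, 1.45 ± 0.119% in 82Q and 1.46 ± 0.184% in 82Q_M120A, with overlapping ranges (1.28 to 1.44%, 1.31 to 1.61% and 1.24 to 1.67%). In bulk tissue, fewer cells of a type and less RNA of a gene per cell cannot be told apart, and neither was tested.

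**Figure D2:**
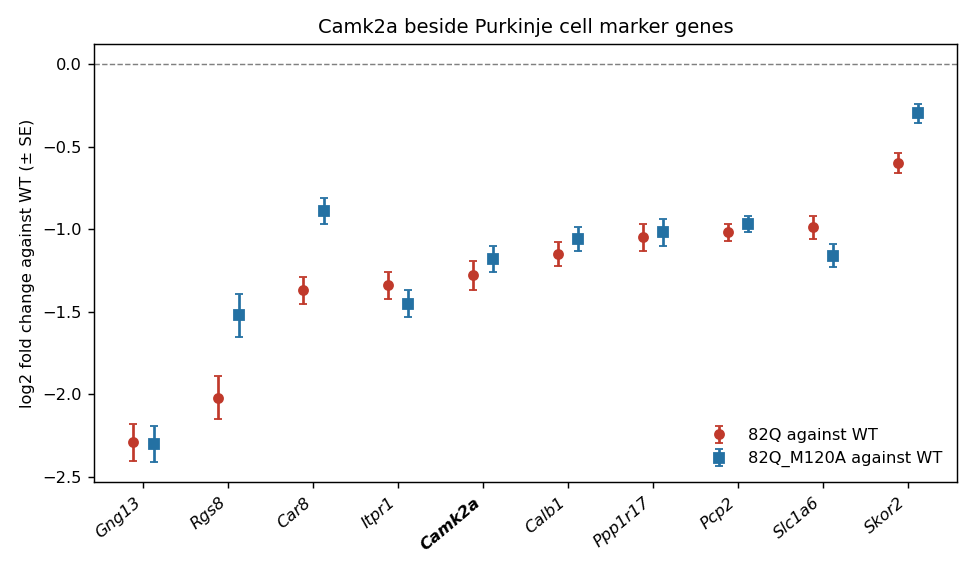
Log2 fold change against WT (± approximate SE) of Camk2a (bold) and 9 of the Purkinje cell marker genes, for 82Q (circles) and 82Q_M120A (squares), ordered by the 82Q value. Camk2a, at -1.28 and -1.18, lies between Itpr1 and Calb1, while Rgs8, Car8 and Skor2 were the markers called higher in 82Q_M120A than in 82Q.

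The genes most like Camk2a over the 15 libraries were Cntnap5b, Sbk1 and Homer3, by the root mean square difference of gene-centred log2 CPM among 10418 genes whose mean reached 10 CPM. Their differences were 0.113, 0.116 and 0.128 log2 units, against a median of 0.601 over all genes compared. Cntnap5b, a contactin-associated adhesion protein gene, went from 38.3 ± 1.28 CPM in WT to 15.1 ± 1.78 in 82Q and 15.7 ± 1.35 in 82Q_M120A. Sbk1, a serine/threonine kinase gene, went from 868 ± 55.1 to 375 ± 6.83 and 403 ± 22.7 CPM. Homer3, a postsynaptic scaffold gene of Purkinje cells, went from 307 ± 18.8 to 118 ± 9.83 and 127 ± 10.4 CPM.

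Camk2b (chr11:5969644-6066362, minus strand) encodes the beta subunit, which binds actin and is found in Purkinje and granule cells alike. WT-1 to WT-5 held 797, 780, 766, 797 and 756 CPM. The 82Q libraries held 662, 663, 666, 709 and 644, and the 82Q_M120A libraries 637, 731, 700, 684 and 718. All WT libraries lay above all others, by a narrow margin against 82Q_M120A-2. The fall was much smaller than that of Camk2a, -0.22 ± 0.04 in 82Q (1.17-fold, adjusted p = 0.000568) and -0.17 ± 0.04 in 82Q_M120A (1.12-fold, adjusted p = 0.00303), both against WT.

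Camk2d (chr3:126596302-126846326) and Camk2g (chr14:20734875-20794088), the delta and gamma subunit genes, are expressed across many tissues. Camk2d ranged from 221 to 241 CPM in WT, from 216 to 236 in 82Q and from 227 to 232 in 82Q_M120A. The log2 fold change in 82Q against WT was -0.02 with a 95% interval of -0.09 to 0.04, narrower than for any other of the 10 genes. Camk2g ranged from 158 to 186, from 164 to 192 and from 147 to 186 CPM, with -0.02 (-0.15 to 0.11) in 82Q and -0.12 (-0.25 to 0.01) in 82Q_M120A against WT. The last of these was not called (adjusted p = 0.148) but passed without WT-4, at -0.16 (adjusted p = 0.0364), or without 82Q_M120A-3 (adjusted p = 0.0381).

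The make-up of the CaMKII signal shifted away from the alpha subunit gene. Within a library such shares do not depend on the scaling between libraries. Divided by exonic length and summed over the 4 subunit genes, Camk2a made up 12.8 ± 1.02% in WT, 6.33 ± 0.674% in 82Q and 6.71 ± 0.71% in 82Q_M120A, with WT at 11.9 to 14.6% and the others at 5.46 to 7.89%. Camk2b held 60.2 ± 1.53%, 62 ± 0.713% and 63.3 ± 0.991%, Camk2g 19.7 ± 1.2%, 23.2 ± 0.97% and 21.5 ± 1.16%, and Camk2d 7.18 ± 0.267%, 8.49 ± 0.387% and 8.52 ± 0.442%. These shares and their order depend on the length used. Without length scaling Camk2d held 17.3, 20 and 20%, and with the median length of basic protein-coding transcripts, chosen after seeing the data, 9.34, 11.2 and 11.1%. With transcript lengths the WT share of Camk2a (13.3%) stood above that of Camk2g (8.5%), the reverse of the order per kb of exon. Per kb of exon, the Camk2d shares lay wholly above WT (6.97 to 7.65%) in 82Q (8.05 to 8.9%) and 82Q_M120A (8.19 to 9.29%). So did the Camk2g shares, at 17.6 to 20.5% in WT, 21.9 to 24.4% in 82Q and 20.8 to 23.5% in 82Q_M120A. The level of neither gene was called in the fit of all libraries. A share also rises where other genes of the sum fall. Per Camk2a count there were 5.76 ± 0.541 Camk2b counts in WT (4.87 to 6.22), 12.1 ± 1.37 in 82Q (10.4 to 14.1) and 11.6 ± 1.18 in 82Q_M120A (9.69 to 12.5). No test was made of these shares and ratios, since the genes were chosen with results of these data known.

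**Figure D3:**
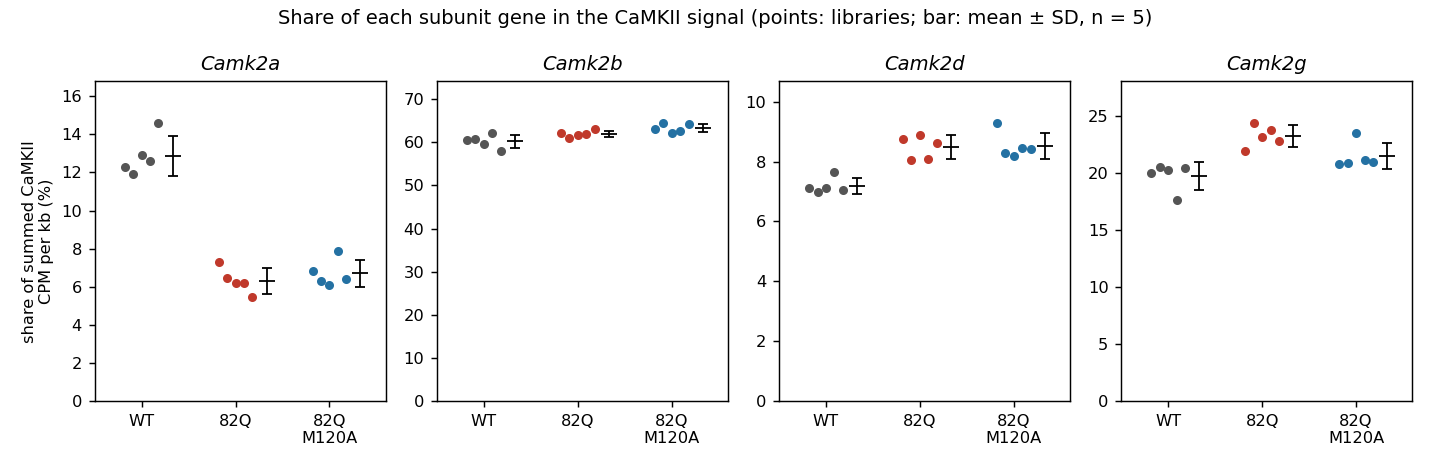
Share (%) of each CaMKII subunit gene in the summed CPM per kb of exon of the 4 genes, per library, with the mean ± SD (n = 5). The Camk2a share is 12.8% on average in WT and 6.33% and 6.71% in the 82Q groups, and the 3 other subunit genes make up the rest.

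The 4 subunit genes are paralogues, so shared sequence could mix their counts. None of the 50-base windows of their GENCODE M21 transcripts occurred in the transcripts of another CaM kinase gene of the set. With any other gene, 0.293% of the Camk2a windows, 0.159% of those of Camk2b and none of those of Camk2d and Camk2g were shared on either strand. The sources used here do not give the read length, so a window of 50 bases is a choice.

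Camk4 (chr18:32934931-33191228), the CaMKIV gene, had the highest level of the 10, both in counts and per kb of exon. It ranged from 1000 to 1250 CPM in WT, from 920 to 1150 in 82Q and from 1010 to 1130 in 82Q_M120A. No comparison was called: the log2 fold change was -0.06 (95% interval -0.19 to 0.07) in 82Q and -0.09 (-0.22 to 0.04) in 82Q_M120A against WT. Granule cell markers (8 genes, such as Gabra6 and Fat2) summed to 4850 to 5600 CPM in WT, 4970 to 5560 in 82Q and 5480 to 6030 in 82Q_M120A. In 82Q against WT 1 was higher and none lower (12.5% called, against 18.7% of all tested genes). In 82Q_M120A against WT 6 were higher and 1 lower (87.5%, against 36.4%).

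Camkk2 (chr5:122731170-122779409) encodes the CaM kinase kinase that also activates AMP-activated protein kinase (AMPK). Its levels were 326, 333, 313, 323 and 288 CPM in WT-1 to WT-5 and 286, 259, 294, 304 and 294 in 82Q-1 to 82Q-5. The 82Q_M120A libraries stood at 319, 338, 324, 336 and 325. WT and 82Q overlapped through WT-5, while every 82Q_M120A library lay above every 82Q library. Camkk2 was higher in 82Q_M120A than in 82Q by 0.19 ± 0.04 (adjusted p = 0.00493). It was lower in 82Q than in WT by a log2 fold change of -0.14 ± 0.04 (adjusted p = 0.0332). Leaving out any of 5 libraries ended that call, with an adjusted p of 0.0902 for WT-2, 0.0848 for WT-1, 0.0722 for 82Q-2, 0.0682 for WT-4 and 0.0542 for 82Q-1, as did library size as the only scaling (0.14). 82Q_M120A against WT gave 0.05 (-0.04 to 0.15), not called (adjusted p = 0.371).

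Camkk1 (chr11:73019008-73042073), the other kinase kinase gene, was not called in any comparison. Its range was 85.6 to 103 CPM in WT, 86.1 to 94.4 in 82Q and 80.4 to 94.4 in 82Q_M120A, and its log2 fold change was -0.04 against WT in both 82Q groups (95% intervals -0.15 to 0.07 and -0.15 to 0.06). With the choroid plexus covariate Camkk1 was lower in 82Q_M120A than in WT by -0.16 (adjusted p = 0.00321).

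The CaMKI genes Camk1 and Camk1d encode cytoplasmic kinases of the cascade, both known for roles in neurite growth. Camk1d (chr2:5293457-5714515) stood at 66, 69.6, 62.6, 62.1 and 71.9 CPM in the WT libraries. It was at 49.9, 52.9, 56.4, 51.7 and 49.5 in 82Q, and at 58.6, 55.7, 52.3, 58.9 and 56.8 in 82Q_M120A. All WT libraries lay above all others, and the 82Q groups overlapped. Camk1d fell by 0.35 ± 0.05 log2 units in 82Q (1.27-fold, adjusted p = 2.84e-05) and by 0.23 ± 0.05 in 82Q_M120A (1.18-fold, adjusted p = 0.000834). Between the 82Q groups it differed by 0.12 (0.02 to 0.22), not called (adjusted p = 0.0964), but called without 82Q-3 (0.0374), without 82Q_M120A-3 (0.0484) or with the choroid plexus covariate (0.0462).

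Camk1 (chr6:113334124-113343984) showed its largest spread in 82Q_M120A. WT-1 to WT-5 held 44, 44.4, 43.2, 43.1 and 42.9 CPM, a coefficient of variation of 1.39%. 82Q-1 to 82Q-5 held 39.9, 37.5, 37.8, 39.3 and 38.1 (2.68%). The 82Q_M120A libraries held 43.2, 53.4, 54.7, 48.7 and 38.1 (14.7%), so that 3 of the 5 lay above all WT libraries and 1 below them. Camk1 was higher in 82Q_M120A than in 82Q by 0.30 ± 0.07 (1.24-fold, adjusted p = 0.00742), although 82Q_M120A-5 lay within the 82Q range. Against WT the difference was 0.13 (-0.03 to 0.28), not called (adjusted p = 0.181), and 0.20 without 82Q_M120A-5 (adjusted p = 0.00761).

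WT and 82Q did not overlap for Camk1, yet the difference of -0.18 ± 0.07 was not called (adjusted p = 0.108). The fit shares 1 spread over the 3 groups, and 82Q_M120A varied most; a fit of WT and 82Q alone called Camk1 with the same log2 fold change of -0.18 (adjusted p = 0.00067). Camk1 shares 232 exonic bases with Ogg1, a DNA repair gene on the other strand. The sources used here do not say whether counting used strand. Ogg1 was at 3.23, 4.86, 4.6, 4.06 and 4.01 CPM in 82Q_M120A-1 to 82Q_M120A-5, at 3.41 to 4.17 in WT and at 3.44 to 4.25 in 82Q, and was not called in any comparison. The part of shared reads in the Camk1 values was not tested. In GENCODE M21 Camk4 also shares 72 exonic bases with the antisense gene 2310026I22Rik, and no other CaM kinase gene of the set shares exonic bases with another gene.

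Camkv (chr9:107935674-107949691), the pseudokinase gene, was the lowest of the 10 and rested on 274 to 545 counts per library. CPM was 5.95, 6.49, 6.74, 6.59 and 7.33 in WT, and 7.66, 5.95, 4.78, 6.24 and 6.09 in 82Q. In 82Q_M120A it was 3.87, 5.24, 4.5, 4.04 and 4.64. The 82Q_M120A libraries lay below all WT libraries and below all 82Q libraries but 82Q-3. Camkv was lower in 82Q_M120A than in WT by a log2 fold change of -0.57 ± 0.11 (1.48-fold, adjusted p = 0.000463) and than in 82Q by -0.46 ± 0.11 (1.38-fold, adjusted p = 0.00546). In 82Q against WT it was not called, at -0.11 (-0.33 to 0.12; adjusted p = 0.546).

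**Figure D4:**
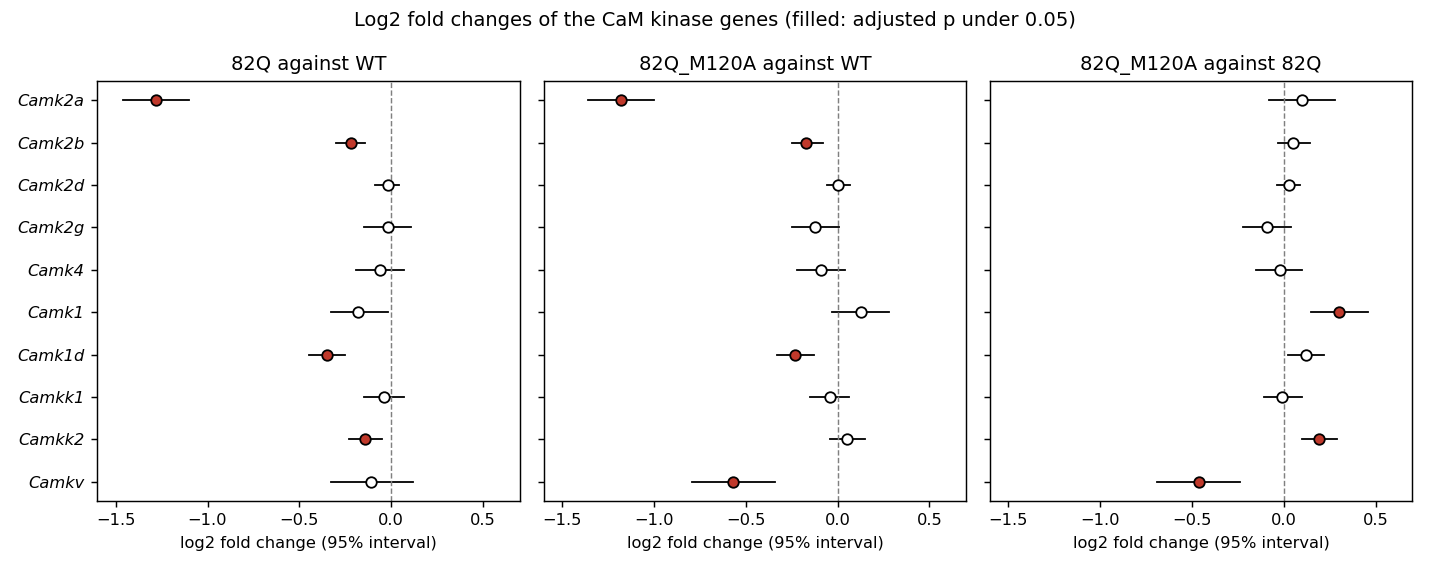
Log2 fold change (horizontal axis, with its unadjusted 95% interval) of the 10 CaM kinase genes in the 3 comparisons; filled points have an adjusted p under 0.05. Camk2a stands apart on the left in both comparisons with WT, at -1.28 and -1.18, and Camk1 (0.30), Camkk2 (0.19) and Camkv (-0.46) are filled in 82Q_M120A against 82Q.

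Levels of different genes were set side by side per kb of exon (the union of all annotated exons), which counts rarely used exons in full. On that scale the WT order was Camk4 (344 ± 27 CPM per kb), Camk2b (85.4 ± 2), Camkk2 (29 ± 1.61), Camk2g (28 ± 1.84), Camkk1 (24.7 ± 1.73), Camk2a (18.2 ± 1.52), Camk2d (10.2 ± 0.351), Camk1d (8.94 ± 0.579), Camk1 (7.28 ± 0.101) and Camkv (1.76 ± 0.131). Neighbours in this order whose WT libraries overlapped were Camkk2 with Camk2g and Camk2g with Camkk1. The order and its gaps depend on the length used. For Camk2b the union is 9125 bp and the median basic protein-coding transcript 1924 bp, and for Camk4 they are 3259 and 2717 bp. In 82Q Camk2a, at 7.49 ± 0.898 CPM per kb, came after Camk2d (10 ± 0.397) and overlapped Camk1d (7.01 ± 0.375). In 82Q_M120A Camk2a (8.05 ± 0.8) again followed Camk2d (10.2 ± 0.0993) and overlapped Camk1 (7.97 ± 1.17).

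Promoter windows from RefSeq (GRCm38.p6) were at hand for 7 of the genes, in 8 windows of 250 bases before the annotated start, and not for Camk2a, Camk2g and Camk4. They were searched on both strands for the cyclic AMP response element TGACGTCA, the site of CREB, which both CaMKIV and protein kinase A phosphorylate, for its core TGACG, which the full element contains, for AGGTCA, the core site of the nuclear receptor Rora, and for TGAATGAA, a site of the Atxn1 partner CIC. No full element, AGGTCA or TGAATGAA was found in the 8 windows; of 32851 RefSeq windows 1.55%, 14% and 1.08% hold them. TGACG occurred in 2 of the 8 windows, against 17.8% of all windows. Both matching stretches are shown, 5′ to 3′ on the gene's strand with the match in capitals. They lie at chr6:113344083-113344127 (minus strand, match starting 185 bases before the start) and chr11:73018802-73018846 (plus strand, 166 bases before it).
Camk1: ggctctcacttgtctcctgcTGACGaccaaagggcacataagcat
Camkk1: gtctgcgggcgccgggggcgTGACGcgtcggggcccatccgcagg
A match is a description of the letters, not a site of binding.

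Around the kinases, 79 genes in 10 lists of calmodulin, its buffers, kinase inhibitors, related kinases, calcineurin, calcium supply, substrates and targets were read from the same fit, and all were tested. In 82Q against WT 23 were lower, 4 higher and 52 not called (34.2% called, against 18.7% of all tested genes; median log2 fold change -0.07 against 0.01). In 82Q_M120A against WT 32 were lower, 10 higher and 37 not called (53.2%, against 36.4%; median -0.08 against 0.01). In 82Q_M120A against 82Q 11 were lower, 9 higher and 59 not called (25.3%, against 18.9%; median 0.01 against 0.00).

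The calmodulin genes Calm2 and Calm3 fell in both 82Q groups against WT. Calm2 went from 1400 ± 45 CPM in WT to 1090 ± 62.8 in 82Q (-0.36 ± 0.04, adjusted p = 1.02e-05) and 1160 ± 57.8 in 82Q_M120A (-0.27 ± 0.04), and Calm3 from 1240 ± 29.8 to 1110 ± 38.7 and 1090 ± 46.6 (-0.17 ± 0.04 and -0.19 ± 0.04). Neither was called between the 82Q groups. Of 4 calmodulin buffer genes 1 was called in 82Q against WT (25%, against 18.7% of all tested genes). It was Pcp4, a small calmodulin-binding protein of Purkinje cells, which fell from 459 ± 20.9 to 186 ± 14.9 CPM (-1.30 ± 0.07, adjusted p = 7.85e-10), close in size to Camk2a. Pcp4l1 (-0.18 ± 0.10, adjusted p = 0.23) and neurogranin gene Nrgn (0.26 ± 0.18, adjusted p = 0.368) were not called in 82Q against WT.

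Of the 4 genes for inhibitors and phosphatases of CaM kinases, 1 fell in 82Q against WT (25% called, against 18.7% of all tested genes). Camk2n2, which encodes an inhibitor of CaMKII, went from 114 ± 4 CPM in WT to 94.8 ± 6.9 in 82Q (-0.26 ± 0.04, adjusted p = 0.000216) and stood at 105 ± 2.81 in 82Q_M120A, called against WT (-0.12, adjusted p = 0.0384) and against 82Q (0.14, adjusted p = 0.0241). The related and more abundant Camk2n1 was not called (223 ± 18.6, 215 ± 6.96 and 207 ± 12.8 CPM). The CaM kinase phosphatase gene Ppm1e was at 60.3 ± 1.72, 64 ± 3.21 and 53.6 ± 1.97 CPM, not called in 82Q (adjusted p = 0.115) and lower in 82Q_M120A than in WT (-0.17 ± 0.04, adjusted p = 0.00154). Ppm1f was lower in 82Q_M120A than in WT by -0.08 ± 0.03 (adjusted p = 0.0492).

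Of 14 other calmodulin-regulated kinases and their relatives 2 were higher and none lower in 82Q against WT (14.3%, against 18.7% of all tested genes called). These were the phosphorylase kinase gene Phkg1, from 16.7 ± 0.38 to 18.9 ± 0.654 CPM (0.18 ± 0.05, adjusted p = 0.0112), and the myosin light chain kinase gene Mylk, from 8.68 ± 0.678 to 9.84 ± 0.441 (adjusted p = 0.0448). Dclk1, the most abundant of the list, was at 444 ± 31.3 and 426 ± 21.6 CPM (adjusted p = 0.459). None of the 6 calcineurin genes, which encode the calcium-dependent phosphatase and its regulators, was called in 82Q against WT (Ppp3ca 711 ± 24.2 and 663 ± 46.6 CPM, adjusted p = 0.149; Ppp3cb -0.09 ± 0.03, adjusted p = 0.051).

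Calcium supply and buffering genes fell in all 10 cases in 82Q and in 9 of 10 in 82Q_M120A against WT, with medians of -0.62 and -0.72. That is 100% and 90% called, against 18.7% and 36.4% of all tested genes. Cacna1g, a T-type calcium channel, went from 449 ± 11.9 CPM in WT to 175 ± 17.6 in 82Q and 176 ± 17.4 in 82Q_M120A. Calb1 and Itpr1, the calcium release channel of the endoplasmic reticulum, are also among the Purkinje cell markers above. The exception in 82Q_M120A was Cacna1a, a P/Q-type calcium channel gene, which fell from 513 to 458 CPM in 82Q (adjusted p = 0.0344) and stood at 525 in 82Q_M120A.

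Of 15 synaptic substrates and anchors of CaMKII 7 fell and none rose in 82Q against WT (46.7% called, against 18.7% of all tested genes). In 82Q_M120A against WT 7 fell and 1 rose (53.3%, against 36.4%). Itpka, an inositol trisphosphate kinase that CaMKII phosphorylates, went from 97.9 ± 4.19 CPM in WT to 31.2 ± 1.46 in 82Q (-1.65 ± 0.07, adjusted p = 3.56e-11) and 34.4 ± 4.37 in 82Q_M120A. Kalrn, a guanine nucleotide exchange factor of dendritic spines, went from 64.6 ± 2.71 to 40.6 ± 1.21 and 40.8 ± 1.54 CPM. Cacng2 (stargazin), which holds AMPA receptors at the synapse, fell by 0.25 ± 0.04 log2 units in 82Q, and the AMPA receptor gene Gria1 by 0.22 ± 0.05 (adjusted p = 0.002).

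Downstream of the cascade, none of 10 nuclear targets was called in 82Q against WT, where 18.7% of all tested genes were called (Mef2d -0.12 ± 0.04, adjusted p = 0.0688, and Crebbp 0.15 ± 0.06, adjusted p = 0.0936). In 82Q_M120A against WT 3 of them were higher and 1 lower (40%, against 36.4% of all tested genes called). The lower one was the class IIa histone deacetylase gene Hdac5, from 221 ± 5.7 to 194 ± 10.5 CPM (-0.19 ± 0.03, adjusted p = 0.000285). Of 7 CREB-responsive genes 1 was called in 82Q against WT (14.3%, against 18.7% of all tested genes). It was Arc, higher at 28 ± 3.94 CPM against 21.8 ± 2.97 (adjusted p = 0.0145). In 82Q_M120A against WT Arc was again higher (30 ± 0.785 CPM, adjusted p = 0.00132) and 4 were lower (71.4% called, against 36.4%). Among the lower was Bdnf, from 22.1 ± 2.96 to 13.7 ± 3.03 CPM (-0.69 ± 0.16, adjusted p = 0.00425). Of 6 AMPK subunit genes, the other branch below Camkk2, 1 was lower, 1 higher and 4 not called in both comparisons with WT. That is 33.3% called, beside 18.7% of all tested genes in 82Q and 36.4% in 82Q_M120A. Prkab2 fell from 51.9 ± 2.64 to 43.5 ± 2.67 CPM in 82Q (-0.26 ± 0.05) and Prkaa1 rose from 42.9 ± 0.703 to 47 ± 1.6 (0.13 ± 0.03).

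**Figure D5:**
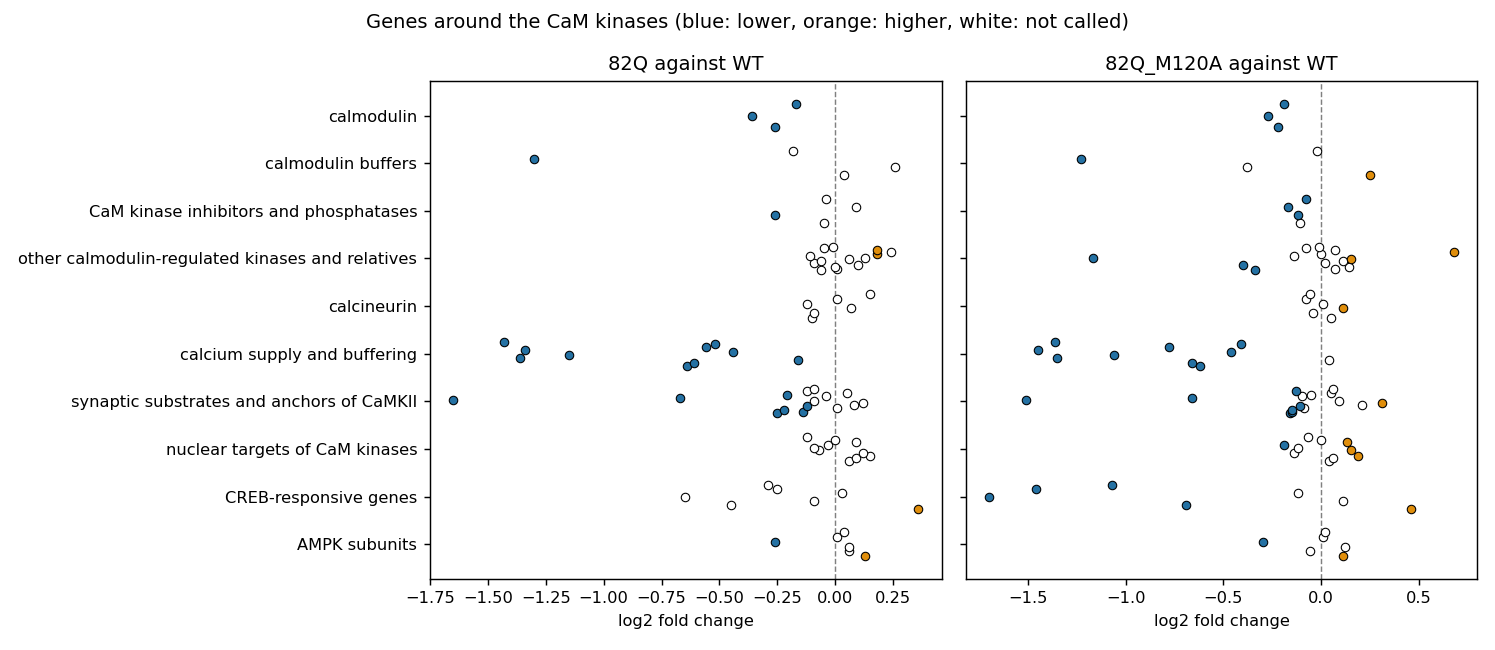
Log2 fold change against WT (horizontal axis) of the 79 genes around the CaM kinases, by list, for 82Q (left) and 82Q_M120A (right), whose horizontal scales differ; blue points were called lower, orange higher, and white points were not called. Calmodulin genes are all to the left of 0 in both panels, and the calcium supply list holds 10 blue points on the left panel and 9 on the right.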

How the data were processed

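The authors deposited 1 table of read counts per gene symbol, with whole numbers in 15 library columns whose names show the group but no replicate number. Tools listed in the submitters' processing notes are DESeq2 1.14.1, R 3.3.3, Subread, featureCounts, HISAT2 2.0.1 and CASAVA 1.8, with build mm10. The sources used here do not give the annotation, the use of strand or the treatment of multiply aligned reads. Total counts ran from 38322749 to 99422994.

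All symbols were fitted with edgeR 4.0.16 (limma 3.58.1, R 4.3.3) using TMM factors, filterByExpr, glmQLFit with robust estimation, group as the only factor and all 15 libraries, with two-sided tests and Benjamini-Hochberg adjustment over 16808 genes. SE was taken from the log2 fold change and the root of its F statistic, and 95% intervals add the residual and prior degrees of freedom. The script was tested on simulated data. Alternatives were DESeq2 1.42.0, limma-voom, other scalings, filters and thresholds, fits of 2 groups, and leaving out each library. Positions, exonic lengths and overlaps are from GENCODE M21.

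The members and lists were chosen with earlier results of these data known. Named beside the members are up to 3 genes per list with the smallest adjusted p in 82Q against WT and its most abundant gene, the 3 genes most like a member that fell or rose by at least 0.5 log2 units, overlapping genes, the altered genes, and markers beside a result. Cacna1a and the genes of the closing observations were chosen after their values were seen. Some genes that the rule names are not reported here.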

Additional observations from a re-analysis of the deposited data

Results flagged for a closer look

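Camk2a in 82Q_M120A-4 stood at 70.5 CPM, apart from the other 4 libraries of its group, of which the nearest was at 58.7. Camk2g in WT-4 stood at 158 CPM, below the other 4 WT libraries, of which the nearest was at 182. In each case the gap to the nearest library was more than 0.71 of the range of the group (0.818 and 0.861). Of 30 groups of 5 values 2 were set apart this way, and chance alone gives about 1 in 20. Without 82Q_M120A-4 and without WT-4 in turn, Camk2a remained lower than in WT. Camk2g, not called in 82Q_M120A against WT in the fit of all libraries, was called lower without WT-4, at -0.16 (adjusted p = 0.0364).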

How the results depend on the processing

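No paired analysis was possible because the library columns carry no replicate numbers. Over 20 alternatives (10 of them leaving out 1 library) none of the 30 log2 fold changes of members changed direction where it was called; of 600 values 577 stayed on their side of the threshold, 15 lost and 8 gained a call. Camk2a kept its calls against WT in all 20, with -1.34 to -1.22 in 82Q and -1.24 to -1.13 in 82Q_M120A when single libraries were left out. A test against a 1.2-fold change called 1, 2 and 0 members in 82Q against WT, 82Q_M120A against WT and 82Q_M120A against 82Q (4, 4 and 3 in the fit reported), 12, 16 and 1 of the 79 pathway genes (27, 42 and 20), and 689, 1709 and 630 of all genes (3142, 6118 and 3175). At an adjusted p under 0.01, 6 pathway genes were called in 82Q_M120A against 82Q, and 1823, 4060 and 1645 of all genes. With library size as the only scaling 73% of the calls in 82Q against WT and 68.8% in 82Q_M120A against WT were higher (46.2% and 51.1% with TMM), and log2 fold changes against WT moved up by a median of 0.05 and 0.049. The Camk2a share of the CaMKII signal was 10.3, 4.96 and 5.23% in WT, 82Q and 82Q_M120A without length scaling, and 13.3, 6.67 and 6.99% with transcript lengths, chosen after seeing the data; the Camk2d share was 17.3, 20 and 20%, and 9.34, 11.2 and 11.1%; the Camk2g share was 19.7% in WT per kb of exon, 13.5% without length scaling and 8.5% with transcript lengths.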

Other observations

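Several genes of the lists around the CaM kinases differed between the 82Q groups; they are named here after their values were seen. Dclk3, a doublecortin-like kinase gene, stood at 10.4, 11.4, 11.6, 11.3 and 10.1 CPM in 82Q-1 to 82Q-5 and at 8.71 to 11.6 in WT. In 82Q_M120A-1 to 82Q_M120A-5 it was at 2.62, 3.1, 8.09, 3.8 and 4.68, so that 82Q_M120A-3 lay close to the other groups while the rest lay far below. The log2 fold change against 82Q was -1.29 (adjusted p = 0.00151, edgeR quasi-likelihood). Camk1g, the CaMKI gamma gene, was at 20.6 CPM in 82Q_M120A against 25 in 82Q (-0.28, adjusted p = 0.0179) and 26 in WT. Crtc1, a coactivator of CREB, was at 211 CPM against 181 in 82Q (0.22, adjusted p = 0.00447), and Crem, a CREB relative, at 13.4 against 16 (-0.25, adjusted p = 0.00447).

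The activity-dependent genes Fos and Npas4 varied between libraries of a group. Fos ranged from 11.3 to 45.6 CPM in WT, from 6.46 to 33 in 82Q and from 4.4 to 14.3 in 82Q_M120A. Npas4 ranged from 3.37 to 6.84, from 2.41 to 5.83 and from 1.35 to 2.94 CPM. Both were also called lower in 82Q_M120A than in WT (adjusted p = 0.0282 for Fos and 0.0018 for Npas4, edgeR quasi-likelihood). Egr1 varied less, with a coefficient of variation of 6.83%, 7.95% and 10.4% in WT, 82Q and 82Q_M120A, against 60.5%, 74.7% and 59.4% for Fos. Among the CaM kinase genes the coefficient of variation within 82Q_M120A ran from 0.972% (Camk2d) to 14.7% (Camk1).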
